A study of Mus musculus with 18 samples.

Results

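This account follows 37 glycolysis and hypoxia genes of 55450 genes counted in RNA from mouse bone marrow-derived macrophages (BMDMs). The genes were chosen by name and role, with earlier results of these data known but no measured value in the rule: the glucose transporter Slc2a1, the enzymes from hexokinase to lactate dehydrogenase, the lactate exporter Slc16a3, regulators of the pathway, the hypoxia factor Hif1a with 2 of the hydroxylases that mark it for breakdown, and genes known to be induced when oxygen is low. All 37 passed the filter on low values (3 or more of the 18 libraries with an FPKM of 1 or above), which 12025 genes passed.

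Glycolysis splits glucose into pyruvate in the cytosol, and lactate dehydrogenase turns pyruvate into lactate while renewing the NAD that the Gapdh step needs. Hypoxia-inducible factor 1 (HIF-1) holds the subunit Hif1a, which prolyl hydroxylases of the Egln family mark for destruction through Vhl while oxygen is at hand. Stabilized HIF-1 binds short DNA motifs before many glycolytic genes, and macrophages activated by inflammatory stimuli are known to raise glycolysis, in part through Hif1a, without a lack of oxygen.

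The libraries fell into 6 groups of 3. Of WT cells there were non-treated, MSU, apigenin and MSU + apigenin groups, and of CD38KO cells a non-treated and an MSU group. MSU, the monosodium urate crystal of gout, was given at 0.2 mg/ml for 6 hours and apigenin, a plant flavonoid that inhibits the NAD-consuming enzyme CD38, at 25 µM. Every culture, controls included, came from bone marrow grown in L929-conditioned medium and was then primed over 24 hours with 20 ng/ml GM-CSF. The study's methods place both genotypes on the C57BL6/J background and use mice of either sex, and CD38KO cells lack the enzyme from the germline on. Apigenin was not given to CD38KO cells, so its CD38-independent part cannot be told apart here. The titles of the 6 apigenin libraries and a treatment tag conflict over which 3 were given MSU as well. Groups here follow the titles, and calls that changed under the tag are given beside the gene.

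Levels are in CPM, counts relative to the library size after TMM scaling between libraries, and a log2FC is the log2 fold change of edgeR's quasi-likelihood test with its standard error. A gene was called, and is said here to have risen or fallen, at a Benjamini-Hochberg adjusted p under 0.05 over the 12025 tested genes with a log2FC of at least 1 in size. Adjusted p-values below are from that test. Nothing in the labels says which cultures came from separate mice, so p-values measure the spread between these libraries. In such bulk RNA, fewer cells of a type and less RNA per cell cannot be told apart.

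Total counts were 51058336 to 83209648 per library, and the 37 genes took 0.661% to 1.17% of them. Cd38 was at 18.5 to 93.4 CPM in WT libraries and at 0.303 to 1.17 CPM in CD38KO libraries. The summed level of 8 macrophage markers was 10750.0 to 22940.0 CPM without apigenin and 45370.0 to 60870.0 CPM with it, and the 5 lymphocyte and the 5 erythroid markers summed to at most 4.11 and 1.69 CPM. WT replicates 1 and 2 stood apart from WT replicate 3. Ifi202b, a gene known to differ between inbred strains, was at 8.08 to 153 CPM in all 8 of their libraries and at no more than 0.207 CPM in the 10 others. Summed neutrophil markers (9 genes) likewise reached 156 to 335 CPM in these 8 libraries and 8.44 to 25.3 CPM in the others. The X-inactivation RNA Xist, which marks cells of females, reached 54.1 to 83.8 CPM in all of WT replicate 3 (4 libraries), stood at 67.8 and 56.8 CPM in WT replicate 1 with MSU and with MSU + apigenin, and did not pass 0.291 CPM in the 12 other libraries, all 6 of CD38KO among them. WT replicate 1 thus differed in Xist with MSU, and for the MSU comparisons in WT the fit was also run without it, a choice made after seeing the data. Results are also given below with WT replicate 3 as the only WT library of each group, where the spread is taken from the CD38KO groups.

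Windows of the RefSeq promoters (build GRCm38.p6) are shown first, because HIF-1 recognizes the letters ACGTG or GCGTG and these letters could be looked for in the members' own sequence. Of the 37 genes, 34 had a promoter in the table, and 26 of these (76.5%) held ACGTG or GCGTG on either strand in the 250 bases before their most upstream start, against 10442 of 27025 genes (38.6%) overall. Part of the members were chosen as genes known to be induced when oxygen is low. The background was every gene with a promoter entry, not only those tested here, so the 2 shares were not compared by a test. The overlapping motif CACGTG, which counts as a match on both strands, stood in 4 of the 34 (11.8%), against 6.04% of all. The 8 without a match were Aldoa, Eno2, Gpi1, Hk1, Mxi1, Pkm, Tpi1 and Vegfa, and Bnip3l, Ero1l and Ndrg1 had no entry. The window around the match nearest the start is printed for 5 members that rose with apigenin and then for 3 that fell with apigenin under MSU, 5′ to 3′ on the gene's strand, with matches in capitals (CACGT and CACGC are the same letters read on the other strand).
Ldha (chr7:46845745-46845799, plus strand): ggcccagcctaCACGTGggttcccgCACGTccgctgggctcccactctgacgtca
Pgk1 (chrX:106186944-106186998, plus strand): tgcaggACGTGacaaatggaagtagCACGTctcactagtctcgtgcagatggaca
Pdk1 (chr2:71873121-71873175, plus strand): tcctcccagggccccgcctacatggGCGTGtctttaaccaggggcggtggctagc
P4ha1 (chr10:59323255-59323295, plus strand): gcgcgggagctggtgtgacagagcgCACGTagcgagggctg
Bnip3 (chr7:138909512-138909566, minus strand): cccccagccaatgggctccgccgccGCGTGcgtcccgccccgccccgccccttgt
Slc2a1 (chr4:119108684-119108738, plus strand): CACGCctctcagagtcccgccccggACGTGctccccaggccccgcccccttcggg
Hk2 (chr6:82774477-82774531, minus strand): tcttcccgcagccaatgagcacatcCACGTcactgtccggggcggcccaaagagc
Pfkfb3 (chr2:11553960-11554014, minus strand): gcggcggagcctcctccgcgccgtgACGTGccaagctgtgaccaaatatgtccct
Ldha and Bnip3 held 5 matches each, with a CACGTG among them in both genes. P4ha1 held 3, Pgk1, Slc2a1 and Hk2 2 each, and Pdk1 and Pfkfb3 1 each. Members with and without these letters thus stood on both sides of the apigenin comparison described below, and a match is a description of the sequence alone.

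The first comparison asks what MSU crystals did to these genes in WT BMDMs. 5 of the 37 genes rose (13.5%, against 2.03% of all tested genes) and 2 fell (5.41%, against 1.55%), with a median log2FC of 0.51 over the 37 and −0.03 over all tested genes. The genes that rose were Vegfa, Hk2, Slc2a1, Hif1a and Pfkp, and those that fell were Pfkm and Pfkfb4. None of Gpi1, Aldoa, Tpi1, Gapdh, Pgk1, Pgam1, Eno1, Pkm and Ldha, termed the main enzymes below, was called.

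Vegfa, the growth factor that drives new vessels (ENSMUSG00000023951, chr17:46016993-46032369, minus strand), was at 35.7, 45.8 and 27.9 CPM in WT non-treated and 169, 386 and 282 CPM in WT + MSU libraries. The groups lie far apart, and WT + MSU replicate 1 was the lowest of its group (log2FC 2.94 ± 0.33, adjusted p = 2.89e-04). The call held in each of 18 fits that left out 1 library, with adjusted p from 2.51e-04 to 0.00312. Hk2, the inducible hexokinase that traps glucose in the cell (ENSMUSG00000000628, chr6:82725025-82774454, minus strand), was at 34.2, 39.2 and 43.1 CPM without and 81.8, 139 and 126 CPM with MSU, with no overlap (log2FC 1.57 ± 0.31, adjusted p = 0.00830). It too held in all 18 such fits (adjusted p from 0.00280 to 0.0447).

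Slc2a1, which encodes the glucose transporter GLUT1 (ENSMUSG00000028645, chr4:119108711-119137983, plus strand), was at 61.6, 62.2 and 71.5 CPM in WT non-treated and 160.2, 208 and 164 CPM in WT + MSU cells (log2FC 1.45 ± 0.40, adjusted p = 0.0426). The groups do not overlap, but the call was close to the threshold and was lost without any single one of the 6 libraries compared (adjusted p from 0.0805 without WT + MSU replicate 1 to 0.133 without replicate 2) and without CD38KO + MSU replicate 1, CD38KO non-treated replicate 2 or WT + apigenin replicate 1 or 2 (0.0527 to 0.0561). Hif1a (ENSMUSG00000021109, chr12:73901375-73947530, plus strand) was at 84.3, 92.6 and 71.3 CPM without and 131, 239 and 185 CPM with MSU (log2FC 1.16 ± 0.29, adjusted p = 0.0265). Its groups were separate as well, and its call was lost without WT + MSU replicate 2 (log2FC 0.93, 0.114) or 3 (0.0656) and without WT non-treated replicate 1, 2 or 3 (0.0797, 0.0652 and 0.0929). Scaling by library totals also ended both calls, at adjusted p = 0.0571 for Slc2a1 and 0.0691 for Hif1a.

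The phosphofructokinases, which commit sugar to glycolysis, changed in opposite directions. Pfkp, the platelet form, was at 96.1, 77.3 and 86.5 CPM without and 145, 180.4 and 201 CPM with MSU (log2FC 1.02 ± 0.21, adjusted p = 0.0111), with no overlap. Its log2FC was under 1 with library totals (0.92), without WT + MSU replicate 3 (0.91), without WT non-treated replicate 2 (0.94) and, by less than 0.01, without WT + MSU replicate 2. Pfkm, the muscle form, was at 16.4, 12.9 and 10.6 CPM without and 6.28, 6.81 and 4.58 CPM with MSU (log2FC −1.17 ± 0.29, adjusted p = 0.0253). Its call was lost without any WT + MSU library (adjusted p from 0.0561 to 0.101) or without WT non-treated replicate 1 or 2 (0.0988 and 0.0658). As a share of the FPKM of the 3 phosphofructokinases in the same library, which no scaling between libraries touches, Pfkm made up 17.2% to 22.8% in WT non-treated and 5.24% to 7.16% in WT + MSU libraries.

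Pfkfb4 and Pfkfb3 set the level of fructose 2,6-bisphosphate, the activator of phosphofructokinase. Pfkfb4 fell with MSU, from 32.3, 18.8 and 38.4 to 16.7, 13.4 and 11.0 CPM (log2FC −1.12 ± 0.27, adjusted p = 0.0227), a call lost without WT + MSU replicate 2 or 3 (0.0806 and 0.0935) or WT non-treated replicate 1 or 3 (0.0737 and 0.0907). Pfkfb3 (ENSMUSG00000026773, chr2:11471433-11554077, minus strand) was at 36.7, 42.8 and 1.92 CPM in WT non-treated and 65.7, 69.4 and 62.9 CPM in WT + MSU libraries. The groups do not overlap, yet 1 of the non-treated libraries was far below the others and the difference did not pass the test (log2FC 1.28 ± 0.96, adjusted p = 0.526).

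Pgam1 and Ero1l had adjusted p-values under 0.05 with smaller log2FC of 0.79 ± 0.17 and 0.66 ± 0.13. The other 28 members did not pass, with log2FC from −1.05 for Mxi1 to 1.28 for Pfkfb3. Among them were the HIF hydroxylase Egln3 (log2FC 1.22 ± 0.37, adjusted p = 0.0607), itself a known HIF target, which passed with the replicate number as a block (log2FC 1.21, adjusted p = 0.0138), the lactate exporter Slc16a3 (log2FC 1.01 ± 0.34, adjusted p = 0.0905) and the vasodilator peptide gene Adm (log2FC 1.27 ± 1.12, adjusted p = 0.606). Without WT replicate 1, only Vegfa of the 7 was called (log2FC 3.18, adjusted p = 0.0113), and the other 6 had the same sign at adjusted p from 0.0660 to 0.220. With WT replicate 3 alone, the 7 called genes kept their direction, at log2FC 3.34 for Vegfa, 1.55 for Hk2, 1.37 for Hif1a, 1.21 for Pfkp, 1.20 for Slc2a1, −1.20 for Pfkm and −1.80 for Pfkfb4, and none passed the test with 1 library a group (adjusted p from 0.115 to 0.519).

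**Figure D1:**
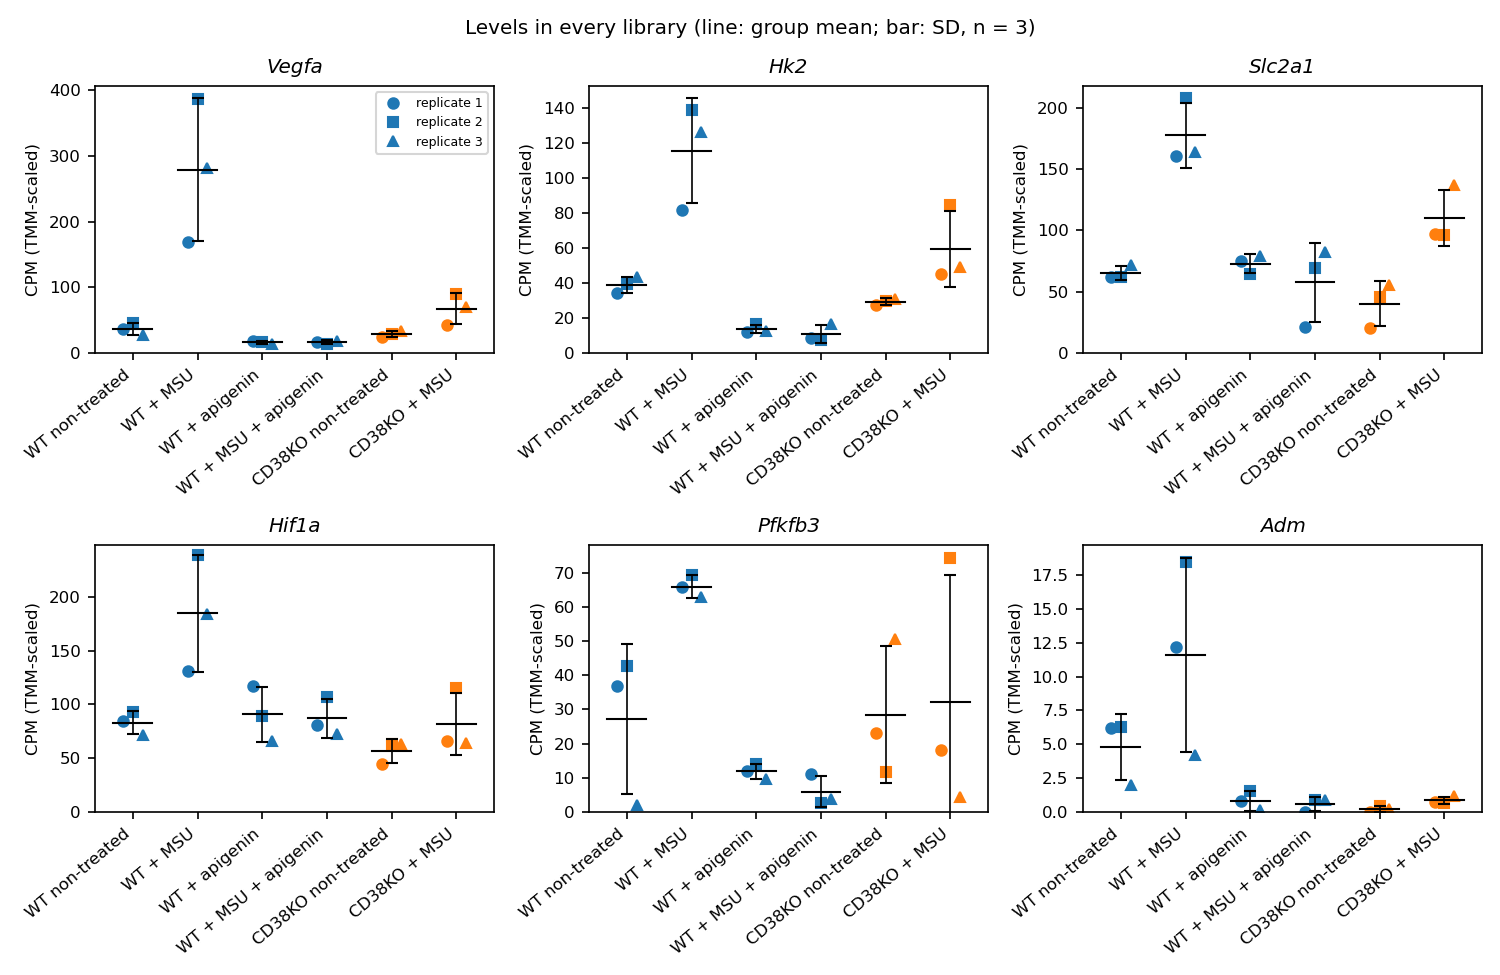
TMM-scaled CPM of 6 genes in each of the 18 libraries, by group on the x axis. Points are libraries with the shape giving the replicate number, lines are group means and bars the SD of n = 3. Vegfa, Hk2, Slc2a1 and Hif1a have their highest group mean in WT + MSU, and Vegfa lies between 12.8 and 18.7 CPM in the 6 libraries with apigenin.

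In CD38KO BMDMs, 2 of the 37 genes were called with MSU. Vegfa rose there (1 of 37, 2.70%, against 1.52% of all tested genes), from 23.8, 29.4 and 33.5 to 42.2, 89.3 and 69.9 CPM (log2FC 1.21 ± 0.31, adjusted p = 0.0474), and Pfkfb4 fell (2.70%, against 0.482%), from 26.6, 32.6 and 33.3 to 17.0, 13.1 and 14.3 CPM (log2FC −1.06 ± 0.27, adjusted p = 0.0460). The groups did not overlap for either gene, and both calls were near the threshold. Each held in 5 of 18 fits with 1 library left out, with adjusted p up to 0.156 for Vegfa without CD38KO non-treated replicate 2 and up to 0.160 for Pfkfb4 without CD38KO non-treated replicate 3. The Vegfa call was lost without any single library other than CD38KO + MSU replicate 1, WT + apigenin replicate 3, WT + MSU replicates 1 and 2 and WT non-treated replicate 3. That of Pfkfb4 was lost without any other than WT + apigenin replicate 3, WT + MSU + apigenin replicates 1 and 2 and WT non-treated replicates 2 and 3. Slc2a1 had a log2FC of 1.45 ± 0.40 in CD38KO, from 20.2, 45.1 and 55.4 to 96.9, 96.5 and 137 CPM, with no overlap and an adjusted p of 0.0639. Hk2 was at 27.2, 29.4 and 31.0 and 44.8, 84.4 and 49.0 CPM (log2FC 1.02 ± 0.30, adjusted p = 0.0815), and Hif1a at 44.1, 63.5 and 62.9 and 65.7, 116 and 64.3 CPM (log2FC 0.53 ± 0.28, adjusted p = 0.376). The MSU response itself was not shown to differ between the genotypes for any member: the interaction of MSU and CD38KO was called by edgeR for 0 of 37 genes in either direction (0% of all tested genes), with 5 lower and 0 higher at an unadjusted p under 0.05 and 0 by DESeq2 and by limma. For Vegfa that interaction was −1.72 ± 0.44 on the log2 scale (adjusted p = 1.00).

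With apigenin alone, 22 of the 37 genes were called. 18 rose (48.6%, against 13.1% of all tested genes) and 4 fell (10.8%, against 22.2%), with a median log2FC of 0.73 over the 37 and −0.02 over all tested genes. Among the 18 genes from glucose uptake to lactate export, 11 rose, 1 fell and 6 did not pass the test. Each of the 9 main enzymes Gpi1, Aldoa, Tpi1, Gapdh, Pgk1, Pgam1, Eno1, Pkm and Ldha rose, with log2FC from 1.29 to 1.61.

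These sizes depend on how libraries are scaled. Libraries with apigenin had TMM factors of 0.666 to 0.837, and those without had 1.06 to 1.32, and the 20 genes with most counts took 23.5% to 29.7% of counts with apigenin and 14.4% to 20.3% without. With library totals in place of TMM, the median log2FC of all tested genes was −0.72 and the 9 enzymes had log2FC from 0.60 to 0.91, all positive and all under the fold threshold. The members called were then 3 higher and 7 lower, against 18 and 4. In both scalings the 9 enzymes lay above the median of all genes, and the genes that fell did so by either. The summed macrophage markers given above were higher in all 6 apigenin libraries than in the 12 others. The 7 fibroblast markers summed to 591 to 2693 CPM in WT non-treated and 1537 to 6161 CPM in WT + apigenin libraries, and to 662 to 3870.0 and 1845 to 6742 CPM under MSU, higher with apigenin at each replicate number. The 7 endothelial markers, at 14.3 to 52.4 and 33.4 to 97.0 CPM, and 32.6 to 70.8 and 34.7 to 130.2 CPM under MSU, were likewise higher at each number. The part of these markers in the apigenin differences was not tested.

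**Figure D2:**
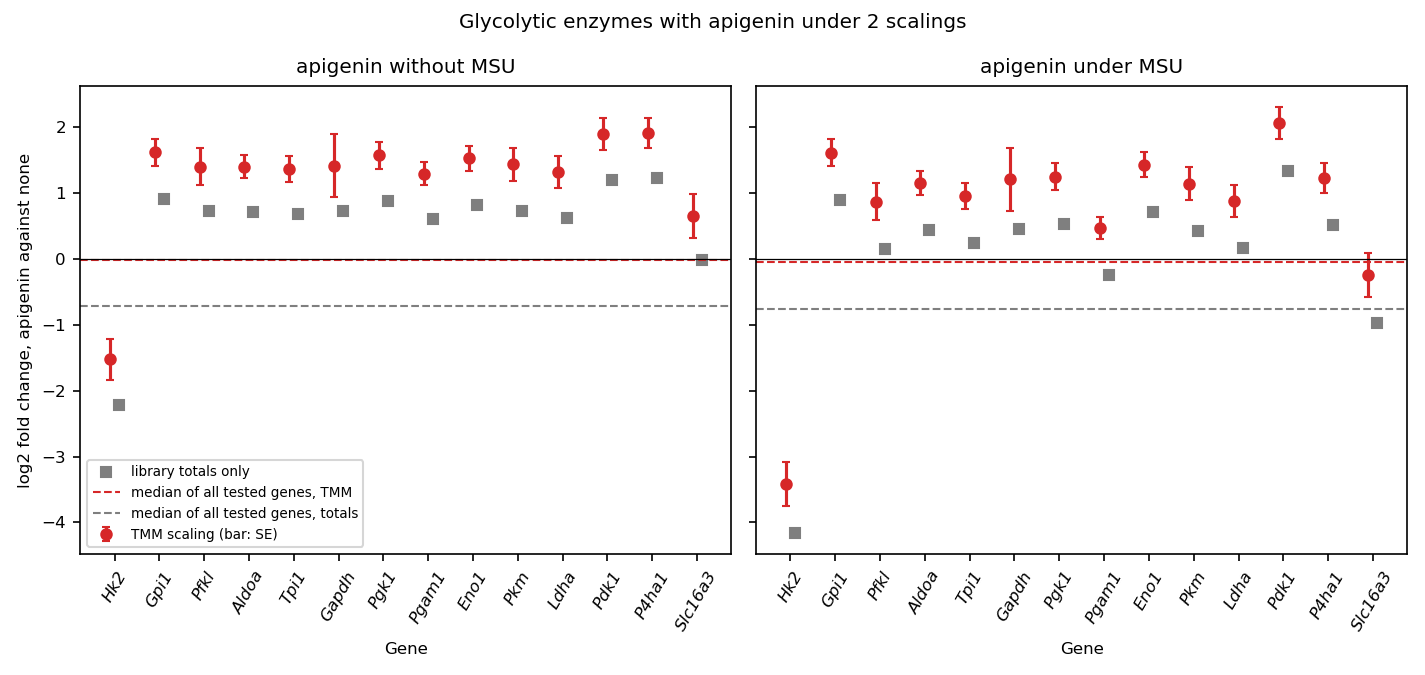
Log2FC of 14 members with apigenin (y axis) by gene (x axis), without MSU on the left and under MSU on the right. Red points show TMM scaling with the SE, grey squares library totals, and dashed lines the median of all tested genes under each. The enzymes from Gpi1 to Ldha lie above the median of their own scaling in both panels, while Hk2 lies below it.

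Gpi1, the isomerase of glucose 6-phosphate, was at 384, 414 and 455 CPM in WT non-treated, 450.3, 487 and 462 in WT + MSU, 1128, 1313 and 1393 in WT + apigenin and 1319, 1454 and 1502 in WT + MSU + apigenin libraries. Its CD38KO levels were 601, 458 and 294 CPM non-treated and 541, 437 and 605 CPM with MSU. All 6 apigenin libraries lie above all 12 others, at 1.61 ± 0.21 without MSU (adjusted p = 3.10e-05) and 1.61 ± 0.21 under MSU (1.73e-05). Aldoa, the main aldolase, was at 685, 627 and 713 CPM in WT non-treated, 933, 872 and 873 in WT + MSU, 1770.0, 1789 and 1779 in WT + apigenin and 1843, 2124 and 1988 in WT + MSU + apigenin libraries. CD38KO libraries held 1246, 722 and 725 CPM non-treated and 867, 854 and 878 CPM with MSU. Its apigenin libraries were again the 6 highest (1.40 ± 0.18, adjusted p = 2.77e-05 without MSU, and 1.15 ± 0.18, 7.70e-05 under MSU). Tpi1, which interconverts the 3-carbon sugars, was at 204, 192 and 194 CPM in WT non-treated, 262, 270.3 and 248 in WT + MSU, 583, 474 and 459.7 in WT + apigenin and 480.4, 533 and 496 in WT + MSU + apigenin libraries. Without CD38 the level was 291, 175 and 186 CPM non-treated and 262, 201 and 326 CPM with MSU. It rose without MSU (log2FC 1.36 ± 0.20, adjusted p = 7.40e-05) and stayed just under the fold threshold with it (log2FC 0.95 ± 0.20, adjusted p = 8.11e-04).

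Pgk1, the first step that makes ATP, was at 515, 481 and 562 CPM in WT non-treated, 565, 636 and 611 in WT + MSU, 1709.7, 1371 and 1552 in WT + apigenin and 1181, 1435 and 1683 in WT + MSU + apigenin libraries. The CD38KO values were 755, 465 and 474 CPM without and 675, 541 and 771 CPM with MSU. No library without apigenin reached one with it (1.57 ± 0.20, adjusted p = 2.98e-05 without MSU, and 1.25 ± 0.20, 1.13e-04 under MSU). Pgam1, the mutase that follows, was at 281, 251 and 368 CPM in WT non-treated, 456, 514 and 586 in WT + MSU, 747, 618 and 841 in WT + apigenin and 673, 687 and 782 in WT + MSU + apigenin libraries. Its CD38KO levels were 447, 415 and 359 CPM non-treated and 446, 541 and 512 CPM with MSU. It rose with apigenin alone (log2FC 1.29 ± 0.17, adjusted p = 3.47e-05), and under MSU its log2FC was 0.46 ± 0.17 (adjusted p = 0.0285), a value that turned to −0.25 with library totals.

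Pkm, the pyruvate kinase of most tissues, was at 1029, 971 and 1426 CPM in WT non-treated, 1356, 1387 and 1693 in WT + MSU, 2713, 2727 and 3839.8 in WT + apigenin and 2744, 3325 and 3706 in WT + MSU + apigenin libraries. CD38KO libraries held 1972, 1279 and 1215 CPM non-treated and 2015, 1439.7 and 2396 CPM with MSU. Its 6 apigenin libraries were the highest (log2FC 1.44 ± 0.25, adjusted p = 3.09e-04 without MSU, and log2FC 1.14 ± 0.25, adjusted p = 0.00125 under MSU). Ldha (ENSMUSG00000063229, chr7:46841475-46855627, plus strand) was at 496, 496 and 641 CPM in WT non-treated, 626, 737 and 716 in WT + MSU, 1379, 1269 and 1409 in WT + apigenin and 1095, 1395 and 1339 in WT + MSU + apigenin libraries. Without CD38 the level was 919, 540.5 and 533 CPM non-treated and 908, 552 and 1058 CPM with MSU. It rose with apigenin alone (log2FC 1.31 ± 0.24, adjusted p = 5.13e-04), and under MSU its groups were also separate at a log2FC of 0.88 ± 0.24 (adjusted p = 0.00606), under the fold threshold. Ldha made up 95.7% to 98.7% of the FPKM of Ldha and Ldhb in every library.

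Gapdh and Eno1 share near-identical sequence with other genes of the annotation, so their reads could be split among copies. Gapdh (ENSMUSG00000057666, chr6:125161715-125166467, minus strand), the step that reduces NAD, was at 108, 207 and 238 CPM in WT non-treated, 314, 252 and 223 in WT + MSU, 536, 432 and 500.4 in WT + apigenin and 692, 264 and 860.2 in WT + MSU + apigenin libraries. The CD38KO values were 446, 139.7 and 171 CPM without and 320.0, 199 and 455 CPM with MSU. The 3 libraries of WT + MSU + apigenin spread widely and 1 lies inside the WT + MSU range (log2FC 1.41 ± 0.48, adjusted p = 0.0234 without MSU, and log2FC 1.20 ± 0.48, adjusted p = 0.0409 under MSU). However, 62.0% to 91.0% of the counts of Gapdh and its 77 copies in a library stood at the copies. With these counts summed, the levels were 833 to 861 CPM in WT non-treated, 1137 to 1215 in WT + MSU, 2639 to 2781 in WT + apigenin and 2879 to 3004 in WT + MSU + apigenin, and the log2FC with apigenin was 1.66 ± 0.15 (adjusted p = 2.72e-06) without and 1.34 ± 0.15 (5.45e-06) with MSU. Unsummed, the Gapdh call was lost without WT + apigenin replicate 1 (0.0561) or WT non-treated replicate 1 (0.0944) in the first comparison, and in the second without any of the WT + MSU libraries (0.0565 to 0.113), WT + MSU + apigenin replicate 1 (0.0987) or 3 (0.163), CD38KO + MSU replicate 1 (0.0501), or with the treatment tag (0.119).

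Eno1, the main enolase, was at 389.9, 393 and 528 CPM in WT non-treated, 459, 566 and 617 in WT + MSU, 1151, 1159 and 1455 in WT + apigenin and 1282, 1389 and 1746 in WT + MSU + apigenin libraries. Its CD38KO levels were 594, 528 and 455 CPM non-treated and 681, 495 and 627 CPM with MSU. Its apigenin libraries were the 6 highest (log2FC 1.52 ± 0.19, adjusted p = 2.48e-05 without MSU, and log2FC 1.43 ± 0.19, adjusted p = 2.27e-05 under MSU). Its copies Eno1b and Gm4735 took 24.0% to 48.2% of the counts of the 3 genes in the 8 libraries of WT replicates 1 and 2, but 9.52% to 10.5% in WT replicate 3 and 8.18% to 11.5% in CD38KO libraries. Summing the counts kept both apigenin calls (1.67 ± 0.23 and 1.36 ± 0.23).

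Other members that rose with apigenin act around the pathway. Pdk1, a mitochondrial kinase that inhibits pyruvate dehydrogenase, was at 38.1, 40.5 and 35.5 CPM in WT non-treated, 25.9, 36.5 and 26.0 in WT + MSU, 150.3, 131 and 142 in WT + apigenin and 96.5, 129.6 and 142 in WT + MSU + apigenin libraries. CD38KO libraries held 63.0, 45.1 and 43.9 CPM non-treated and 46.5, 24.1 and 41.9 CPM with MSU. It rose in both apigenin comparisons, without MSU (log2FC 1.89 ± 0.24, adjusted p = 2.47e-05) and with it (log2FC 2.06 ± 0.24, adjusted p = 6.81e-06), and kept the call with library totals (1.19 and 1.33) and in every other setting run. P4ha1, a collagen prolyl hydroxylase and HIF target, was at 122, 120.5 and 75.4 CPM in WT non-treated, 146, 193 and 134 in WT + MSU, 509, 401 and 285 in WT + apigenin and 369.8, 434 and 303 in WT + MSU + apigenin libraries. Without CD38 the level was 66.9, 64.2 and 61.1 CPM non-treated and 83.0, 95.7 and 97.7 CPM with MSU. It too rose in both, at 1.91 ± 0.23 (adjusted p = 1.91e-05) and 1.23 ± 0.23 (3.80e-04), the second falling to 0.51 with library totals.

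Bnip3, a mitophagy receptor, was at 45.0, 52.4 and 46.3 CPM in WT non-treated, 38.0, 58.2 and 33.3 in WT + MSU, 166, 117 and 92.1 in WT + apigenin and 80.1, 128 and 85.6 in WT + MSU + apigenin libraries. The CD38KO values were 43.8, 48.6 and 50.4 CPM without and 30.7, 37.1 and 36.4 CPM with MSU. Its apigenin libraries were the 6 highest (log2FC 1.39 ± 0.24, adjusted p = 3.33e-04 without MSU, and log2FC 1.18 ± 0.24, adjusted p = 8.01e-04 under MSU), and without WT + MSU + apigenin replicate 2 the log2FC under MSU was 0.94. Ero1l, an oxidase of the endoplasmic reticulum, was at 55.1, 61.6 and 57.8 CPM in WT non-treated, 78.3, 105 and 92.1 in WT + MSU, 156, 112 and 121 in WT + apigenin and 116, 119.9 and 111 in WT + MSU + apigenin libraries. Its CD38KO levels were 66.9, 65.1 and 63.7 CPM non-treated and 79.8, 75.9 and 75.3 CPM with MSU. It rose with apigenin alone (log2FC 1.15 ± 0.13, adjusted p = 1.30e-05) and had a log2FC of 0.33 ± 0.13 under MSU (adjusted p = 0.0414), which turned to −0.38 with library totals. Its value without MSU was 0.99 with the treatment tag and likewise just under 1 without WT + apigenin replicate 1. Of the remaining members, Pfkl (1.40 ± 0.29), Aldoc (1.53 ± 0.37), P4ha2 (1.74 ± 0.37) and Higd1a (1.10 ± 0.25) rose with apigenin alone (adjusted p from 0.00104 to 0.00337). Higd1a, a mitochondrial protein of the hypoxia response, was under the fold threshold without WT non-treated replicate 2 (0.92) and with the tag (0.78).

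The HIF hydroxylases shifted among themselves with apigenin. Egln1, the main one in most cells, was at 34.4, 38.3 and 43.5 CPM in WT non-treated, 41.4, 52.8 and 41.1 in WT + MSU, 89.9, 81.5 and 78.7 in WT + apigenin and 80.3, 96.4 and 75.1 in WT + MSU + apigenin libraries. CD38KO libraries held 41.9, 41.4 and 44.5 CPM non-treated and 39.9, 35.1 and 39.2 CPM with MSU. It rose with apigenin alone (log2FC 1.11 ± 0.14, adjusted p = 2.55e-05), and under MSU its groups were separate at 0.90 ± 0.14 (adjusted p = 8.22e-05), under the fold threshold. Egln2, from a wider list of HIF regulators, fell in both apigenin comparisons (−2.16 ± 0.25 and −2.10 ± 0.25). As a share of the FPKM of the 3 hydroxylases in a library, which no scaling touches, Egln1 was 36.0% ± 2.73 (SD, n = 3) in WT non-treated, 39.5% ± 5.62 in WT + MSU, 80.3% ± 2.86 in WT + apigenin and 80.5% ± 3.68 in WT + MSU + apigenin. Egln3 was at 2.26 to 8.58 CPM in the 12 WT libraries and was not called in either apigenin comparison.

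**Figure D3:**
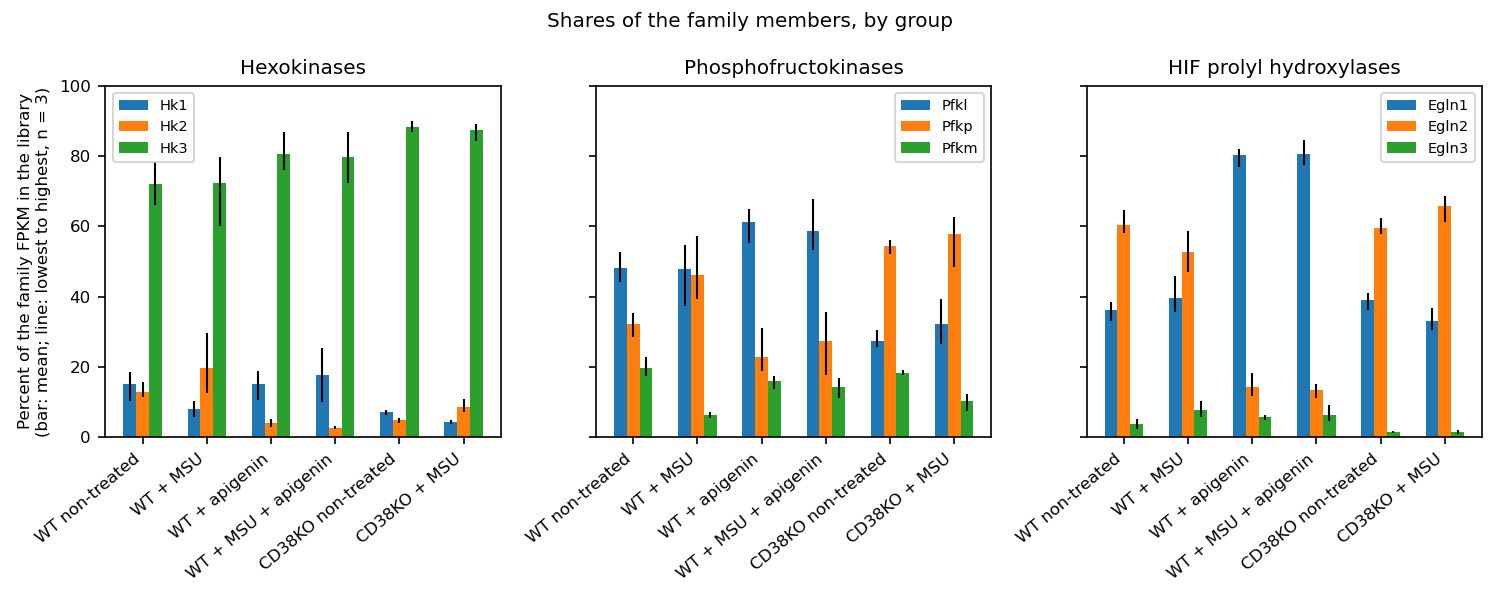
Percent of the summed FPKM of 3 enzyme families taken by each gene (y axis) in the 6 groups (x axis). Bars are means and lines run from the lowest to the highest of 3 libraries. Egln1 takes 77.0% to 84.6% of its family with apigenin and 30.5% to 45.9% without, and the mean share of Hk2 is highest in WT + MSU.

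The 4 genes that fell with apigenin alone were Hk2 (−1.53 ± 0.31), Pfkfb4 (−1.33 ± 0.27), Vegfa (−1.18 ± 0.31) and Kdm3a (−1.36 ± 0.45), a histone demethylase induced by HIF, with adjusted p from 9.55e-04 to 0.0209. Hk2 was at 11.6, 16.2 and 12.6 CPM in WT + apigenin, below every non-treated library, and Vegfa at 18.4, 16.7 and 13.0 CPM. Adm (log2FC −2.55 ± 1.18, adjusted p = 0.0843), Ankrd37 (log2FC −1.66 ± 0.85, adjusted p = 0.116) and Eno2 (log2FC −1.47 ± 0.87, adjusted p = 0.170) had groups that did not overlap and did not pass the test, though Adm (−3.02, adjusted p = 0.0468) and Eno2 (−2.42, 0.0355) did under the treatment tag. Slc2a1 and Hif1a did not pass either, at 74.9, 64.5 and 78.9 and 117, 89.6 and 65.8 CPM (log2FC 0.16 ± 0.39, adjusted p = 0.752, and log2FC 0.13 ± 0.28, adjusted p = 0.710). Pfkfb3 was at 12.0, 14.1 and 9.69 CPM, within the wide range of the non-treated libraries (log2FC −1.19 ± 0.96, adjusted p = 0.317). The Vegfa log2FC was −0.99 without WT non-treated replicate 2, and Kdm3a, whose groups overlapped (16.3 to 42.1 CPM without and 6.48 to 16.9 CPM with apigenin), lost its call without WT + apigenin replicate 1 (0.0541) or 3 (0.0812) or WT non-treated replicate 1 (0.0947).

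Under MSU, apigenin raised 12 of the 37 genes (32.4%, against 18% of all tested genes). It lowered 8 (21.6%), a share near the 25.8% of all tested genes. The median log2FC was 0.46 over the 37 and −0.05 over all tested genes. The 12 were Gpi1, Pfkm, Aldoa, Aldoc, Gapdh, Pgk1, Eno1, Pkm, Pdk1, Bnip3, P4ha1 and P4ha2, 11 of them also called higher without MSU. The 8 were Vegfa, Hk2, Slc2a1, Hif1a, Pfkfb3, Eno2, Adm and Kdm3a. The same WT + MSU libraries entered the first comparison, in which Vegfa, Hk2, Slc2a1 and Hif1a rose. With library totals the counts were 2 higher and 12 lower.

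Vegfa was at 16.1, 12.8 and 18.7 CPM in WT + MSU + apigenin libraries, against 169 to 386 CPM in WT + MSU (log2FC −4.14 ± 0.35, adjusted p = 5.28e-07). Hk2 was at 8.60, 7.31 and 16.5 CPM, against 81.8 to 139 CPM (log2FC −3.42 ± 0.33, adjusted p = 1.48e-06). Both kept the call in every setting run, WT replicate 3 alone included (−3.92 and −2.93). For these genes the libraries with both treatments lay below every WT non-treated library.

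Slc2a1 was at 21.2, 69.4 and 82.1 CPM, with 1 library far below the others (log2FC −1.62 ± 0.40, adjusted p = 0.00325), and Hif1a at 81.2, 107 and 72.5 CPM (log2FC −1.08 ± 0.29, adjusted p = 0.00463). Pfkfb3, with 11.1, 2.69 and 3.83 CPM, was below all WT + MSU libraries (log2FC −3.50 ± 1.05, adjusted p = 0.0103). These 3 held the call in all 18 fits with a library left out, except Hif1a, whose log2FC was −0.97 without WT + MSU + apigenin replicate 3 and −0.86 without WT + MSU replicate 2. With WT replicate 3 alone the values were −1.0 for Slc2a1, −1.35 for Hif1a and −4.04 for Pfkfb3, none of them called (adjusted p of 0.270, 0.0812 and 0.156).

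Adm and Eno2, the neuronal enolase, had few counts with both treatments. Adm was at 12.2, 18.5 and 4.17 CPM in WT + MSU and 0, 0.877 and 0.880 CPM in WT + MSU + apigenin (log2FC −4.29 ± 1.27, adjusted p = 0.00975), and Eno2 at 10.4, 8.96 and 2.52 and 1.22, 0 and 0.724 CPM (log2FC −3.50 ± 0.94, adjusted p = 0.00543). Their groups do not overlap, and each gene had 1 library with 0 counts. Eno2 was 0.455% to 2.51% of the FPKM of Eno1 and Eno2 in WT + MSU libraries. Kdm3a fell from 44.1, 57.9 and 49.1 to 17.3, 10.0 and 11.1 CPM (log2FC −1.97 ± 0.46, adjusted p = 0.00202).

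Pfkm was higher with both treatments than with MSU alone, at 22.4, 25.7 and 13.1 against 6.28, 6.81 and 4.58 CPM (log2FC 1.79 ± 0.29, adjusted p = 1.17e-04). In WT + apigenin it was at 25.8, 26.1 and 14.0 CPM and in CD38KO libraries at 6.12 to 12.4 CPM. Aldoc (1.56 ± 0.37) and P4ha2 (1.21 ± 0.37) also rose, with P4ha2 losing the call without WT + MSU + apigenin replicate 2 (0.0567) or WT + MSU replicate 3 (0.0523). Pfkl (0.87 ± 0.28) and Higd1a (0.92 ± 0.24) stayed under the fold threshold, and Higd1a passed it with the treatment tag (1.24), under which Aldoa fell just short (0.99).

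With apigenin present, MSU changed none of the 37 genes in either direction by edgeR (0 higher and 0 lower, against 0.0166% and 0.0416% of all tested genes), with 0 higher and 1 lower at an unadjusted p under 0.05 and 0 by DESeq2 and limma. Log2FC ranged from −1.03 for Pfkfb3 to 0.37 for Hk1, with −0.01 ± 0.31 for Vegfa, −0.32 ± 0.30 for Hk2 and −0.34 ± 0.39 for Slc2a1. The interaction of MSU and apigenin tests whether the MSU response differed with apigenin. It was called lower for 2 members (5.41%, against 0.69% of all tested genes), Vegfa (log2FC −2.95 ± 0.44, adjusted p = 0.00613) and Hk2 (log2FC −1.89 ± 0.43, adjusted p = 0.0453), and higher for 0 by edgeR (0.358% of all), with 2 higher at an unadjusted p under 0.05 and 0 by DESeq2 and limma. Ero1l had an interaction under the fold threshold (log2FC −0.82 ± 0.19, adjusted p = 0.0456), with adjusted p = 0.114 with library totals, 0.0573 with the block and 0.207 with the tag. Hk2 held in 4 of 18 fits with 1 library left out, those without replicate 2 or 3 of CD38KO + MSU, replicate 3 of WT + MSU + apigenin or replicate 1 of WT + MSU (adjusted p up to 0.123, without WT + MSU replicate 2), and lost the call with the treatment tag (−1.26, adjusted p = 0.159), while Vegfa held in all 18 and with the tag. Without WT replicate 1 in any group, neither was called, at −3.10 for Vegfa (adjusted p = 0.0863) and −1.96 for Hk2 (0.255). Pfkp was called under the tag alone (−1.34, adjusted p = 0.0351). With the replicate number as a block, Pfkm was also called (1.07, adjusted p = 0.0496).

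**Figure D4:**
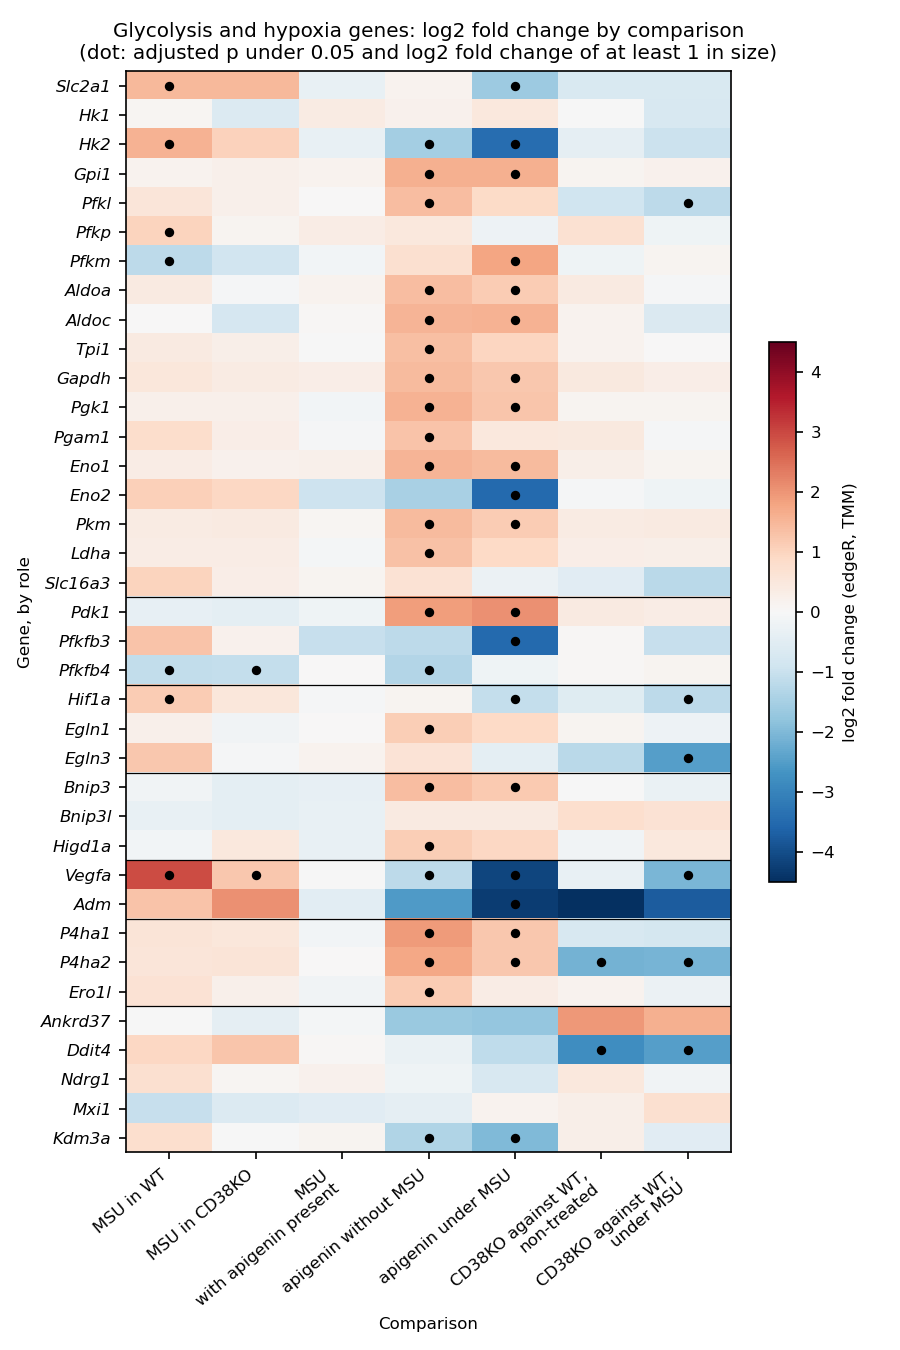
Log2FC of the 37 genes (rows, ordered by role) in 7 comparisons (columns), red for higher and blue for lower, with a dot where a gene was called. Apigenin without MSU has the most dots (22), and MSU with apigenin present has 0.

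Genes around these pathways were counted from lists written for this account, under TMM scaling. Of 20 tested HIF pathway regulators, 2 rose (10%) and 9 fell (45%) with apigenin alone (median log2FC −1.13) and 1 rose (5%) and 9 fell (45%) under MSU (−0.82). Over all tested genes, 13.1% rose and 22.2% fell with apigenin alone (median −0.02), and 18% rose and 25.8% fell under MSU (−0.05), and the lists that follow stand against the same shares. Among the regulators that fell were Vhl (−2.45 ± 0.33 without and −2.69 ± 0.34 with MSU), which binds hydroxylated Hif1a, Hif1an (−2.29 ± 0.32 and −2.99 ± 0.33), an asparagine hydroxylase of HIF, and the coactivator Ep300 (−2.0 ± 0.19 and −1.55 ± 0.18). Those that rose were Os9 in both comparisons (1.04 ± 0.12 and 1.45 ± 0.13) and Elob with apigenin alone (1.12 ± 0.36). Of 11 pentose phosphate genes, 4 rose (36.4%) and 1 fell (9.09%) with apigenin alone (median 0.57) and 4 rose and 0 fell under MSU (0.58), with Tkt at 1.30 ± 0.29 and 1.41 ± 0.29. Of 34 tested genes of pyruvate entry and the TCA cycle, 6 rose (17.6%, near the share of all genes) and 3 fell (8.82%) with apigenin alone (median 0.49), and 10 rose (29.4%) and 5 fell (14.7%) under MSU (0.67). The pyruvate dehydrogenase phosphatase Pdp1, which reverses the action of Pdk1, fell in both (−3.41 ± 0.57 and −5.32 ± 0.63), and so did Pdk4 (−2.48 ± 0.53 and −1.36 ± 0.51), a kinase with the same target as Pdk1, while the kinase Pdk3 rose in both (1.08 ± 0.22 and 1.54 ± 0.22).

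Of 37 other hypoxia targets tested, 4 rose (10.8%, against 2.03% of all tested genes) and 1 fell (2.7%, against 1.55%) with MSU in WT, with Hmox1 (1.83 ± 0.22), which degrades heme, and Kdm6b (1.50 ± 0.36) among the risers. With apigenin alone 7 rose (18.9%) and 12 fell (32.4%), and under MSU 6 rose (16.2%) and 17 fell (45.9%), with medians of −0.63 and −1.43. The shares that rose were near those of all genes. Of 23 other glycolysis and lactate genes tested, 2 rose (Slc16a1 and Gpd2) and 1 fell (Slc2a8) with MSU in WT (8.7% and 4.35%), 6 rose (26.1%) and 2 fell (8.7%) with apigenin alone, and 7 rose (30.4%) and 3 fell (13%) under MSU, with medians of −0.06, 0.46 and 0.50. Tigar, which lowers fructose 2,6-bisphosphate, fell in both apigenin comparisons (−2.25 ± 0.22 and −2.60 ± 0.22), and Pygl, a glycogen phosphorylase, rose in both (1.47 ± 0.19 and 2.26 ± 0.19). Acod1, which makes itaconate, rose with MSU in WT (4.68 ± 0.88) and in CD38KO (5.29 ± 0.91). It fell with apigenin under MSU (−7.61 ± 1.01) and was called lower for the interaction of MSU and apigenin (−6.40 ± 1.17).

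Between CD38KO and WT BMDMs a few hypoxia genes and the phosphofructokinase Pfkl were called, but none of the main enzymes named above. Without treatment, 0 of the 37 genes were higher in CD38KO by edgeR (0.366% of all tested genes; 5 at an unadjusted p under 0.05, 0 by DESeq2 and 1 by limma) and 2 were lower (5.41%, against 3.96%). Under MSU, 0 were higher (0.715% of all; 2 at an unadjusted p under 0.05 and 0 by DESeq2 and limma) and 6 were lower (16.2%, against 2.65%), with a median log2FC of −0.20 over the 37 and 0.03 over all tested genes. The 6 were Ddit4, P4ha2, Vegfa, Egln3, Hif1a and Pfkl, and Ddit4 and P4ha2 were lower without treatment as well.

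Ddit4, an inhibitor of mTORC1 induced by stress and hypoxia, was at 13.9, 12.1 and 6.87 CPM in WT non-treated and 1.41, 1.97 and 1.28 CPM in CD38KO non-treated (log2FC −2.81 ± 0.57, adjusted p = 0.00753), and at 16.4, 30.2 and 15.2 and 3.27, 2.71 and 5.04 CPM under MSU (log2FC −2.49 ± 0.56, adjusted p = 0.0243). P4ha2, a second collagen prolyl hydroxylase, was at 29.3, 36.2 and 20.2 and 6.22, 6.62 and 6.61 CPM without treatment (log2FC −2.14 ± 0.38, adjusted p = 0.00339), and at 35.4, 65.0 and 24.5 and 9.81, 7.65 and 11.9 CPM under MSU (log2FC −2.09 ± 0.38, adjusted p = 0.0102). No CD38KO library reached a WT library for either gene. Egln3 was at 8.58, 5.95 and 4.96 CPM in WT + MSU and 1.55, 1.17 and 0.783 CPM in CD38KO cells given MSU (log2FC −2.47 ± 0.38, adjusted p = 0.00408), and without treatment at 3.61, 2.50 and 2.26 and 1.28, 1.36 and 0.961 CPM (log2FC −1.22 ± 0.37, adjusted p = 0.0796).

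Vegfa under MSU, at 42.2, 89.3 and 69.9 CPM in CD38KO, lay below all WT + MSU libraries (log2FC −2.06 ± 0.32, adjusted p = 0.00408), while without treatment its groups overlapped (log2FC −0.34 ± 0.31, adjusted p = 0.773). Hif1a under MSU, at 65.7, 116 and 64.3 CPM in CD38KO, was also below all WT + MSU libraries (log2FC −1.17 ± 0.29, adjusted p = 0.0323). Pfkl, the liver phosphofructokinase, was at 89.9, 125 and 65.3 CPM in WT + MSU and 30.5, 50.5 and 42.5 CPM in CD38KO cells given MSU (log2FC −1.18 ± 0.28, adjusted p = 0.0309). Its share of phosphofructokinase FPKM was 44.0% to 52.6% in WT non-treated and 25.7% to 30.4% in CD38KO non-treated libraries, and 37.4% to 54.7% and 26.5% to 39.2% under MSU, where 1 CD38KO library reached the WT range.

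The Egln3 and Vegfa calls under MSU and the P4ha2 call without treatment held in all 18 fits with 1 library left out. Under MSU, calls were lost without CD38KO + MSU replicate 1 for Pfkl (0.148), Hif1a (0.152), Ddit4 (0.125) and P4ha2 (0.0656), and without WT + MSU replicate 2 for the same 4 (0.180, 0.180, 0.124 and 0.0547). Pfkl was also lost without CD38KO + MSU replicate 3 (0.0746) or WT + MSU replicate 1 (0.0643), Hif1a without CD38KO + MSU replicate 3 (0.108) or WT + MSU replicate 3 (0.0578), Ddit4 without CD38KO + MSU replicate 2 (0.0563), and Ddit4 without treatment without CD38KO non-treated replicate 3 (0.0501). Fitted on the 2 groups alone, none of the 6 passed under MSU (adjusted p from 0.0595 to 0.122).

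Markers of other cells moved with genotype, and macrophage markers were uneven under MSU. The 8 macrophage markers summed to 10750, 21200 and 11890 CPM in CD38KO + MSU replicates 1, 2 and 3, against 18180 to 18810 CPM in WT + MSU. Without treatment their sums overlapped, at 14180 to 22140 CPM in CD38KO and 18920 to 22940 CPM in WT. The 7 fibroblast markers summed to 591 to 2693 CPM in WT non-treated and 662 to 3870.0 CPM in WT + MSU libraries, against 84.6 to 166 CPM and 151 to 326 CPM in the CD38KO groups, and the 7 endothelial markers to 14.3 to 70.8 CPM against 3.73 to 15.5 CPM, with none of these markers at 0 in all libraries of a group. In the WT + MSU libraries the fibroblast sum was lowest in replicate 3 (662 CPM), as was P4ha2 at 24.5 CPM. Ddit4, Egln3 and Pfkl were lowest in that replicate too, while Vegfa and Hif1a were lowest in replicate 1. With WT replicate 3 alone, whose Xist level was high where that of CD38KO was not, the log2FC under MSU was −2.05 for Ddit4, −1.32 for P4ha2, −2.07 for Vegfa, −2.08 for Egln3, −1.17 for Hif1a and −0.67 for Pfkl, none of them called. The part of the fibroblast, endothelial and macrophage signal in these differences was not tested, and with this replicate alone genotype and sex cannot be told apart. In the main genotype comparisons, Xist was high in WT non-treated replicate 3, in WT + MSU replicates 1 and 3 and in no CD38KO library. Ifi202b was high in WT replicates 1 and 2 and likewise in no CD38KO library. Genotype is thus partly confounded with sex and with this difference between replicates, and their part was not tested. Of the 37 tested genes on the wider list of hypoxia targets, 0 were higher and 5 lower in CD38KO without treatment (13.5% lower, against 3.96%), and 3 were higher (8.11%, against 0.715%) and 6 lower (16.2%, against 2.65%) under MSU. The 3 higher were Car9 (1.77 ± 0.47), Anxa2 (1.04 ± 0.20) and S100a10 (1.47 ± 0.33). Lox, Loxl2, Plod2 and Tmem45a were among those lower in both comparisons, Lox, which crosslinks collagen, at −4.68 ± 0.74 and −3.70 ± 0.71.

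**Figure D5:**
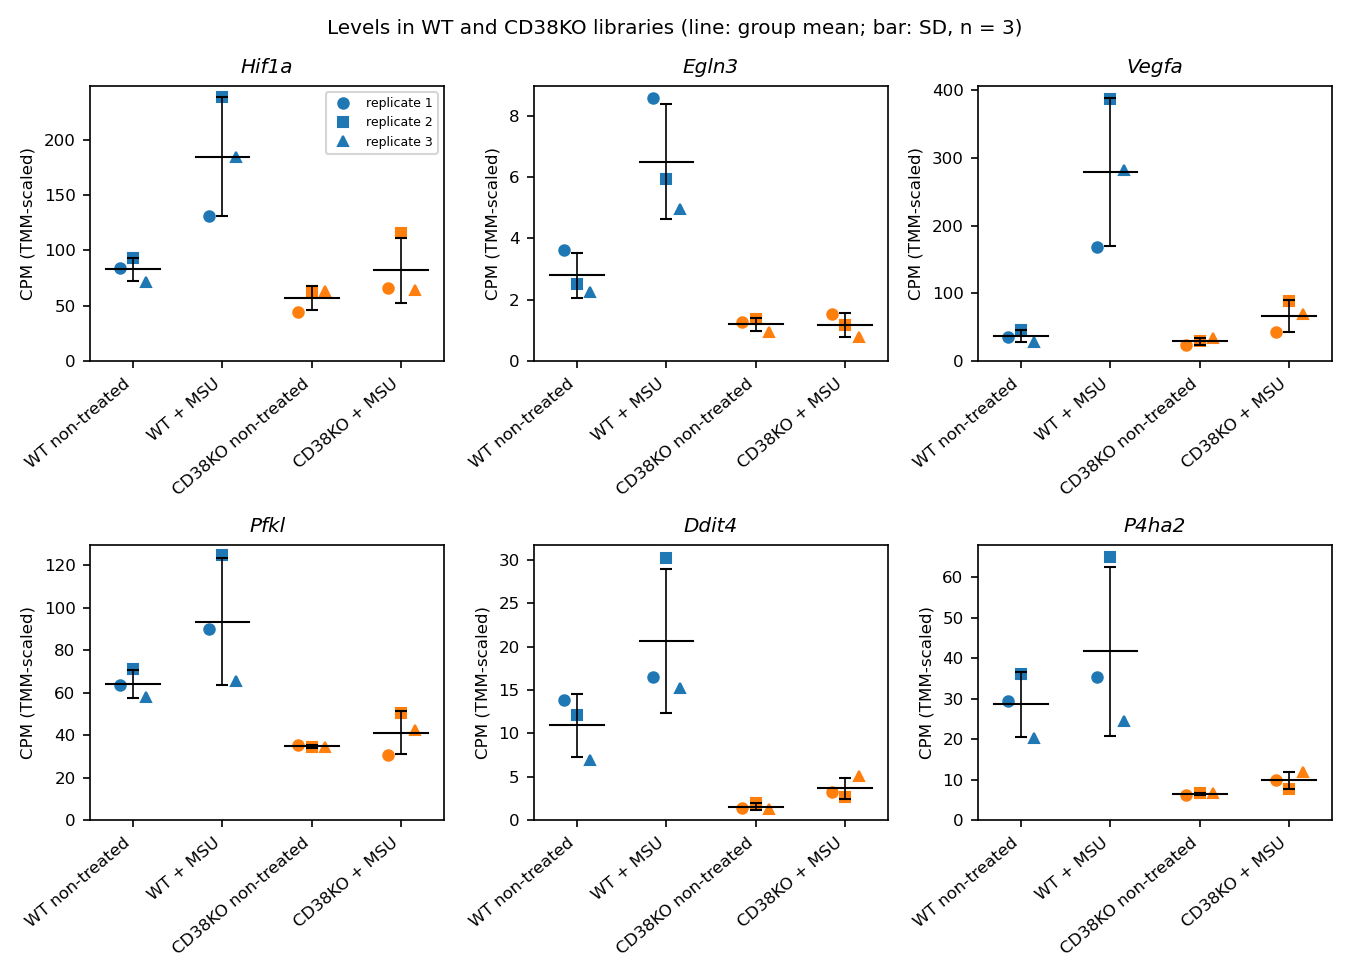
TMM-scaled CPM of the 6 genes lower in CD38KO under MSU (y axis), in WT and CD38KO libraries with and without MSU (x axis). Points are libraries with the shape giving the replicate number, lines are group means and bars the SD of n = 3. For P4ha2 the CD38KO libraries are at 6.22 to 11.9 CPM, below all WT libraries shown (20.2 to 65.0 CPM).

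The remaining members differed little or unevenly between genotypes. The 9 main enzymes had log2FC from 0.11 to 0.45 without treatment and from −0.05 to 0.40 under MSU (CD38KO against WT), none called. These values leave out counts at the copies, whose share of Eno1 counts differed between WT replicates 1 and 2 and CD38KO. With copies summed, Eno1 was at −0.10 ± 0.23 without treatment and −0.30 ± 0.23 under MSU. Gapdh was then at 0.15 ± 0.15 and −0.05 ± 0.15, and neither gene was called. Adm was at 6.18, 6.25 and 1.99 CPM in WT non-treated and 0, 0.421 and 0.187 CPM in CD38KO non-treated, groups that do not overlap and that did not pass the test (log2FC −4.55 ± 1.30, adjusted p = 0.0611). Ankrd37, a small hypoxia-induced ankyrin protein, went the other way, at 1.69, 1.95 and 1.49 and 9.39, 5.87 and 4.77 CPM (log2FC 1.96 ± 0.84, adjusted p = 0.281). Bnip3l, the relative of Bnip3, had adjusted p-values under 0.05 at smaller log2FC, 0.75 ± 0.14 without and 0.66 ± 0.14 with MSU. As a share of the FPKM of the hexokinases Hk1, Hk2 and Hk3, Hk2 was 12.8% ± 2.38 (SD, n = 3) in WT non-treated, 19.7% ± 8.88 in WT + MSU, 4.07% ± 1.19 in WT + apigenin, 2.62% ± 0.429 in WT + MSU + apigenin, 4.76% ± 0.763 in CD38KO non-treated and 8.57% ± 1.92 in CD38KO + MSU. Hk3 made up most of that sum, at 66.0% to 78.2% in WT non-treated and 87.0% to 89.9% in CD38KO non-treated libraries. Hk3 was called higher in untreated CD38KO (log2FC 1.29 ± 0.33, adjusted p = 0.0350), while Hk2 was called in neither genotype comparison.

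Members called in none of the 9 comparisons were Hk1, Slc16a3, Bnip3l, Ankrd37, Mxi1 and Ndrg1. Hk1, the constitutive hexokinase, ranged over 30.4 to 108 CPM, Ndrg1, a stress-responsive gene, over 75.9 to 282 CPM, and Mxi1, an antagonist of Myc, over 9.31 to 41.1 CPM in the 18 libraries.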

How the data were processed

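RNA of 18 libraries was sequenced (6 groups, 3 libraries each). The authors deposited 1 table that gives each gene's read count and FPKM in each library. Tools named in the submitters' processing notes, with no version, are HISAT2, StringTie, edgeR, cutadapt and FastQC. The genome build was not given in the sources used here. A second deposited sheet holds the authors' own log2 ratios of selected genes and was not used. All sample columns were assigned (0 were not). FPKM values deposited by the authors served for the filter, the family shares and limma alternatives.

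Counts were fitted in edgeR 4.0.16 (R 4.3.3) with TMM scaling and the quasi-likelihood test over all 6 groups. A gene was tested if 3 or more libraries had an FPKM of 1 or above, and p-values were adjusted over all of them. limma 3.58.1 on log2(FPKM + 0.5) or log2(FPKM + 1) and DESeq2 1.42.0 were alternatives, as were library totals, median-of-ratios scaling, no filter, no fold threshold, the compared groups alone, a replicate block, WT replicate 3 only, groups by treatment tag, each library left out and, chosen after seeing the data, near-identical copies summed and WT replicate 1 left out. The script was tested on simulated counts. Within groups, replicates differed by far more than sampling noise (chi-square per gene 100.8 to 719).

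The members and lists were chosen with earlier results of these data known. Per-library values are given for the 16 members with the smallest adjusted p in any comparison and for Slc2a1, Pfkfb3, Hif1a and Gapdh. A few called genes are named per list, not always those with the smallest adjusted p. 38 rows of the table bear the 37 member names. Gene positions are from GENCODE M21 (GRCm38), matched by gene ID. Copies are transcripts of other genes that matched a member over at least 300 bases at 95% identity or more (BLAST 2.17.0). Replicate numbers were checked for pairing by correlating deviations from group means. All 3 correlations were above 0.1 for apigenin without MSU (0.272 to 0.589) and apigenin under MSU (0.139 to 0.443). The numbers were taken to pair these libraries, though replicate 1 without MSU correlated more with another number (0.375, against 0.349). With apigenin present, MSU correlations were 0.233 to 0.641, and replicate 2 correlated more with another number (0.364, against 0.349). Xist differed there within replicate 1 (0.0734 CPM in WT + apigenin, 56.8 CPM in WT + MSU + apigenin). Those libraries were thus taken to share only a number. No call changed with the block in any of these comparisons.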

Additional observations from a re-analysis of the deposited data

Results flagged for a closer look

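For 3 genes a direct test of whether the MSU response differed with apigenin gave an adjusted p under 0.05 (edgeR interaction term, adjusted over all tested genes). The log2 difference was −2.95 for Vegfa (adjusted p = 0.00613), −1.89 for Hk2 (0.0453) and −0.82 for Ero1l (0.0456), the last under the fold threshold. Hk2 passed in 4 of 18 fits with 1 library left out and not under the treatment tag (0.159) or with the compared groups alone (0.0893). Ero1l did not pass with library totals (0.114), the block (0.0573) or the tag (0.207). Without WT replicate 1, none of the 3 passed (adjusted p = 0.0863 for Vegfa, 0.255 for Hk2 and 0.241 for Ero1l). Vegfa was at 27.9 to 45.8 CPM in WT non-treated and 169 to 386 CPM in WT + MSU libraries, and at 12.8 to 18.7 CPM in the libraries with apigenin, whose groups overlap.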

How the results depend on the processing

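Over 61 calls in 9 comparisons, 0 reversed direction under any alternative. With library totals, the members called higher and lower were 2 and 2 for MSU in WT (5 and 2 with TMM), 0 and 1 for MSU in CD38KO, 3 and 7 for apigenin without MSU and 2 and 12 for apigenin under MSU. The share of calls that were higher thereby went from 81.8% to 30% without MSU and from 60% to 14.3% under it. That scaling moved the median log2FC of all tested genes by −0.69 and −0.71 in the apigenin comparisons, by −0.11 for MSU with apigenin present, and by −0.13 in both genotype comparisons.

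With limma on log2(FPKM + 0.5) or log2(FPKM + 1), 2 and 3 members were higher with MSU in WT (0 lower with the latter), 0 and 0 higher in CD38KO (0 lower with the latter), 2 and 2 higher with apigenin alone, 1 and 1 under MSU, and 1 and 1 in untreated CD38KO. DESeq2 called 3 higher with MSU in CD38KO and 4 lower in untreated CD38KO. Without the filter, 1 was lower with MSU in WT, 0 were higher and 0 lower in CD38KO, and 1 was lower for the interaction of MSU and apigenin, as with median-of-ratios scaling (1). With the compared groups alone, 0 were lower with MSU in WT, 0 higher in CD38KO, 1 higher in untreated CD38KO, 0 lower in CD38KO under MSU and 1 lower for the interaction. Without a fold threshold, 20 were higher with apigenin under MSU and 1 in each genotype comparison. With WT replicate 3 only, counts were 0 and 0 for MSU in WT, 6 higher with apigenin alone, 3 lower under MSU, and 0 lower in both genotype comparisons and for the interaction. Without WT replicate 1 (chosen after seeing the data), 1 member was higher and 0 lower with MSU in WT and 0 were lower for the interaction with apigenin, with the sign of each lost call kept. The cause of these changes was not tested beyond the fewer libraries or genes that some settings use.

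With each library left out in turn, the members higher and lower ranged over 2 to 6 and 0 to 3 (MSU in WT), 0 to 1 and 0 to 1 (MSU in CD38KO), 16 to 18 and 3 to 5 (apigenin without MSU), 10 to 14 and 7 to 9 (apigenin under MSU), 0 to 1 and 1 to 3 (untreated genotypes), 0 to 0 and 2 to 7 (genotypes under MSU) and 0 to 0 and 1 to 2 (interaction with apigenin).

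With the replicate number as a block, 2 members were higher and 0 lower with MSU in CD38KO, with Slc2a1 gained (1.55, adjusted p = 0.0296) and Pfkfb4 lost (−1.06, 0.0629). Egln3 was gained with MSU in WT (1.21, 0.0138), 4 members were lower in untreated CD38KO with Egln3 (−1.19, 0.0109) and Adm (−4.77, 0.0467) gained, Slc16a3 was gained under MSU (−1.14, 0.0300), and 1 was higher for the interaction. The block changed no other call. Same-number correlations were 0.078 to 0.538 for MSU in WT, where the libraries of replicate 1 had a correlation under 0.1 and differed in Xist, and −0.282 to 0.36 for MSU in CD38KO and the genotype comparisons, so the libraries were taken to share only a number there. Whether WT libraries with and without MSU are paired was not settled otherwise.

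In 100 bases in place of 250, 58.8% of member promoters and 22.1% of all promoters held the motif. Adm and Eno2, both under about 20 CPM, had standard errors near 1 on the log2 scale, which limits what can be called for them. Egln3, also under about 20 CPM, had smaller standard errors.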
